A study of Homo sapiens with 3 samples.

Results

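The regions described here are those called for 2 histone marks in LNCaP cells at 7 windows around 9 imprinted genes, which are H19 with IGF2, DLK1 with MEG3, SNRPN, PEG3, MEST, PEG10 and PLAGL1. A region was a member when it overlapped a window by at least 1 bp, so membership used position and neither the marks' overlap nor their scores. The windows together span 1030 kb, and 133 of the 271891 deposited regions lie in them, 24 of the 71078 H3K27ac regions and 109 of the 200813 H3K4me1 regions. All 24 H3K27ac members and 108 of the 109 H3K4me1 members lay wholly inside a window.

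LNCaP is an androgen-responsive line derived from a lymph node metastasis of a human prostate carcinoma. It was assayed by ChIP-seq with 1 library for H3K27ac, an acetylation of active enhancers and promoters, and 1 for H3K4me1, a methylation of enhancers whether active or primed. An input library carries the antibody label "none" and was not analysed here. No condition was varied between the libraries, and there are no replicates, so no p-value can be given. Read numbers are not part of the lists. The depth is thus unknown, and a stretch without a listed region may still carry the mark. The identity of the line was not checked against marker genes, because no annotation of the build hg19 was at hand.

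Imprinted genes are typically transcribed mainly or only from the maternal or the paternal copy. This is set by DNA methylation laid down in the egg or the sperm at imprinting control regions. Whether it holds in LNCaP was not tested. H19, a long non-coding RNA, is expressed from the maternal copy and its neighbour IGF2, a fetal growth factor, from the paternal copy, and they compete for shared enhancers. DLK1, a transmembrane protein related to Notch ligands, is paternal, and the long non-coding RNA MEG3 beside it is maternal. SNRPN, a splicing protein gene of the Prader-Willi region, PEG3, a zinc finger protein, MEST, a hydrolase-like protein, PEG10, which derives from a retrotransposon, and PLAGL1, a zinc finger regulator of growth, are paternally expressed. The lists do not separate the parental copies, so no value below is allele-specific.

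In the RefSeq gene order of GRCh38.p14, SNRPN overlaps SNURF and SNHG14, PEG3 overlaps ZIM2, and MEST overlaps MESTIT1 and COPG2. PLAGL1 overlaps HYMAI, PEG10 follows SGCE, and IGF2 is followed by INS and TH. These neighbours are given as names only. Coordinates of regions below are hg19, and no region is assigned to a gene, promoter, exon or intron. Each window is therefore called by its genes without a claim about which of them a region belongs to.

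A DNA feature that imprinting control regions are known for is TGCCGC, the letters bound by the zinc finger protein ZFP57 when they are methylated. RefSeq promoter sequences were at hand for 18 start sites of 5 of the 9 genes, and the 250 bases before each start were searched for TGCCGC on both strands (GCGGCA is the same motif on the other strand; no copies overlapped). The motif was found before 7 of the 18 starts, against 12.7% of all 35116 promoters. The 3 MEG3 starts share 1 copy, so the count is also given by gene. Of the 5 genes, 4 had a copy before at least 1 start, against 15.0% of 27305 genes. The 5 genes have 18 starts, up to 5 each, while the 27305 genes have 35116. A gene with more starts has more sequence in which a copy can be found, so this comparison is not like for like. H19, with 1 start and 4 CpG in the 250 bases, had none. The motif contains a CpG. Among sequences with at least 10 CpG it was found before 6 of 10 starts, against 21.6% of 18337 promoters. The 6 include the 3 MEG3 starts that share 1 copy. CpG number was still not matched, with a median of 14.5 against 22. For each of the 4 genes the start with the most copies (the first of these for MEG3) is given here 5′ to 3′, with the motif in capitals. The GRCh38.p14 positions and strands are chr14:100825858-100826107 (plus) for MEG3, chr7:130486097-130486346 (plus) for MEST, chr6:144008260-144008509 (minus) for PLAGL1 and chr15:24954737-24954986 (plus) for SNRPN.
MEG3: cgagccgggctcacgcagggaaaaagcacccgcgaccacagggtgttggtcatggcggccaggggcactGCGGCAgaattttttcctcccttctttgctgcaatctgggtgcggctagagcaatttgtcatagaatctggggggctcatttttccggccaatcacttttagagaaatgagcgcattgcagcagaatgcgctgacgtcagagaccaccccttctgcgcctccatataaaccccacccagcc
MEST: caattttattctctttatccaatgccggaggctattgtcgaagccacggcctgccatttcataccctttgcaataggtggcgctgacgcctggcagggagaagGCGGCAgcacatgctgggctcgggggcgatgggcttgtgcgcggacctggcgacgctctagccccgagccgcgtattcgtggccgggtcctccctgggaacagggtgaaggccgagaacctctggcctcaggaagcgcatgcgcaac
PLAGL1: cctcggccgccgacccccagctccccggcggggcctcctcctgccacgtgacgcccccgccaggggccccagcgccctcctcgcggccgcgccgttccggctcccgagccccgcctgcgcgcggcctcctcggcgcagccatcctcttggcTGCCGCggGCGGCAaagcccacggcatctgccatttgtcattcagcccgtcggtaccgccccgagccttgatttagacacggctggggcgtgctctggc
SNRPN: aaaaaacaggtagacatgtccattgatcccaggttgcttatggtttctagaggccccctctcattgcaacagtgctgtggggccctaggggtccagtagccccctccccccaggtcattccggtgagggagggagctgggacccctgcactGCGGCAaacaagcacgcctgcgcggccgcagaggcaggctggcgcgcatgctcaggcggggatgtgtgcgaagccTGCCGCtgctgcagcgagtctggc
The starts of 1 gene differed widely in CpG number, with 1 to 32 before the 5 PLAGL1 starts, 1 to 12 before the 4 SNRPN starts and 9 to 20 before the 5 MEST starts. Because the build differs, these sequences cannot be set against the hg19 regions, and they show only where the motif lies before these starts.

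Most of the acetylation at these loci lay in the SNRPN window. It held 13 of the 24 H3K27ac regions and 35.95 kb of the 50.8 kb of H3K27ac length, or 70.8%. Over all windows H3K27ac covered 4.93% of the length, against 4.65% of the rest of the chromosomes, a 1.06-fold difference. Without the SNRPN window the covered share was 1.81%, or 0.390 of the level elsewhere. H3K4me1 was spread over more of the loci and covered 13.9% of the windows, against 9.45% of the rest. This 1.47-fold difference was 1.46-fold without SNRPN and 1.17-fold without H19/IGF2. The PEG3 (4.75%), MEST (8.36%), PEG10 (6%) and PLAGL1 (5.86%) windows each lay below the 9.45% of the rest. That value is a share of total length, and it is higher than the medians over windows of equal length used below. The pooled H3K27ac value thus rests on 1 window, and the windows are described separately.

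**Figure D1:**
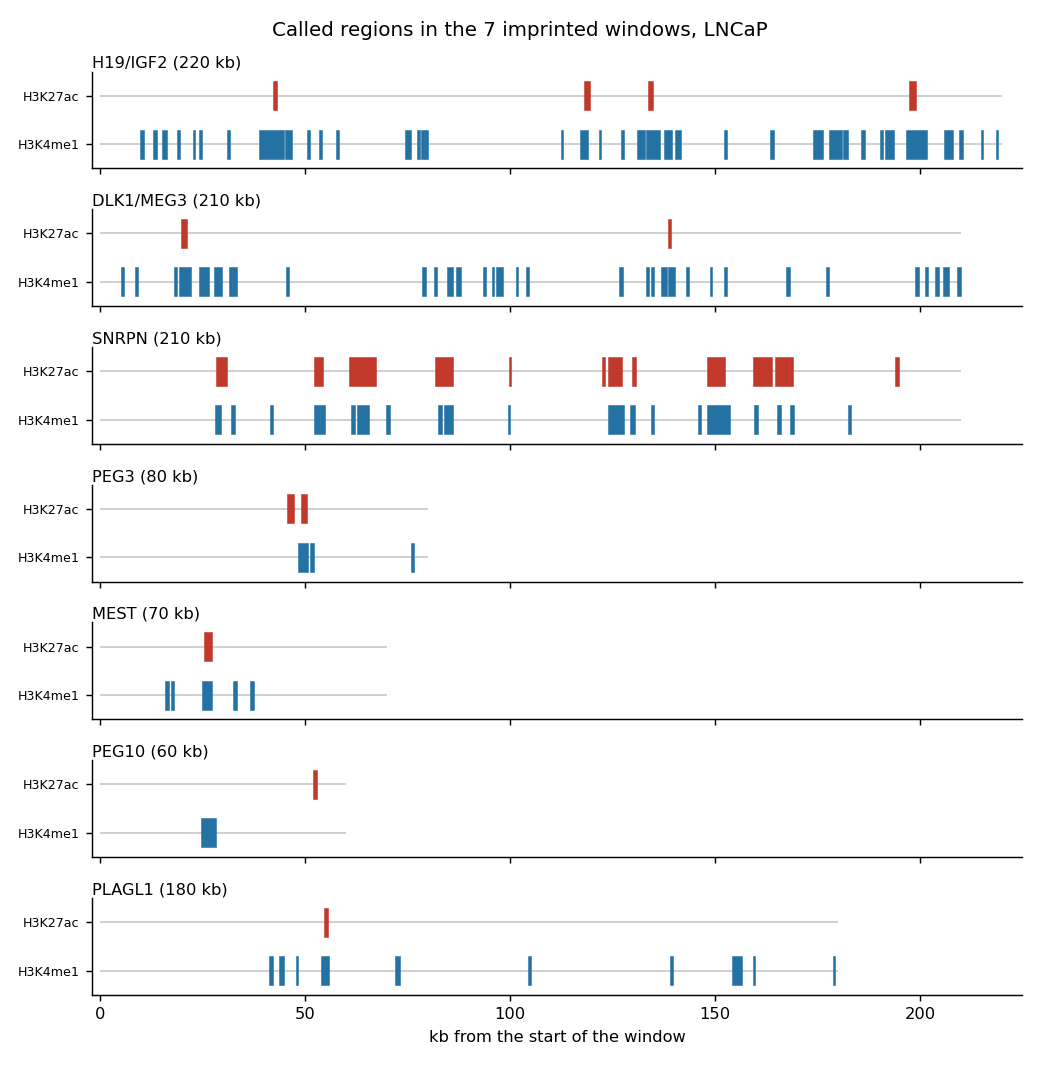
Called regions of H3K27ac (upper row, red) and H3K4me1 (lower row, blue) along each of the 7 windows, in kb from the window's start. SNRPN shows 13 H3K27ac regions, while the H19/IGF2 and DLK1/MEG3 windows show 37 and 33 H3K4me1 regions beside 4 and 2 H3K27ac regions.

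The SNRPN window (chr15:25040001-25250000, 210 kb) held 13 H3K27ac and 20 H3K4me1 regions. H3K27ac covered 17.1% of it, against a median of 2.67% (quartiles 0.476% and 6.69%) over the 14717 windows of 210 kb laid end to end along all chromosomes. Of those, 4.01% held as much H3K27ac or more. H3K4me1 covered 14.5%, against a median of 5.93%, and 24.3% of windows of this length held as much. The acetylated length was 1.18 times the H3K4me1 length, against a median ratio of 0.502 over the 11422 windows holding both marks, of which 8.73% had a ratio this high. Either side of the window held less of both marks, with 3.67% in H3K27ac and 3.17% in H3K4me1 over the 210 kb before the window, and 1.48% and 1.95% over the 210 kb after it.

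H3K27ac regions of the SNRPN window were of 2 kinds, 8 of 2.4 to 6.55 kb and 5 of 0.55 to 1.05 kb. The widest, chr15:25100701-25107250, is 6.55 kb wide and carries the lowest score of its list, 0.001, as do chr15:25163801-25167400 (3.6 kb) and chr15:25188151-25192500 (4.35 kb). This score is an unnamed value that the authors gave each region, and low scores, which go with wide regions, are taken here as the more stringent. The 6.55 kb region was named as the widest of the 24 H3K27ac members, and 1.99% of all H3K27ac regions are as wide or wider. The other windows held 11 H3K27ac regions, none of them wider than 2 kb. A width of 2 kb or more was reached by 9 of the 24 members and by 25997 of the 71053 regions outside. None of the 11 had the lowest score (exact 95% interval 0 to 28.5%), which 14.3% of the H3K27ac regions outside the windows carry. That interval includes the share outside, and over all members the share was 3 of 24 (12.5%). Joined across gaps of up to 12.5 kb, the SNRPN regions formed 7 clusters, and the longest, chr15:25188151-25209050, held 4 regions covering 13.3 kb of its 20.9 kb. It ranked 1596 of 37027 clusters by covered length.

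Acetylation and H3K4me1 coincided over much of the SNRPN window but not everywhere. Of the 13 H3K27ac regions, 11 overlapped H3K4me1, and H3K4me1 covered 62.6% of the H3K27ac length. All of chr15:25188151-25192500 lay in H3K4me1, 98.6% of chr15:25163801-25167400 and 65.6% of the 6.55 kb region. The 5 H3K27ac regions named next were chosen after their values were seen. The neighbouring regions chr15:25199201-25203850 (4.65 kb) and chr15:25204601-25207950 (3.35 kb) were covered over 22.6% and 29.9%. The first region of the window, chr15:25068301-25071000, was covered over 40.7%. The acetylated regions free of H3K4me1 were narrow, chr15:25162501-25163100 (0.6 kb, 0.75 kb from the nearest H3K4me1) and chr15:25233851-25234900 (1.05 kb, 10.65 kb away). In the other direction, 14 of the 20 H3K4me1 regions overlapped H3K27ac, including all 4 of 2 kb or more. The widest of them, chr15:25188001-25193650 (5.65 kb), contained the acetylated region of 4.35 kb. The 28 kb at the start of the window, up to position 25068000, carried neither mark and formed its longest free stretch.

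**Figure D2:**
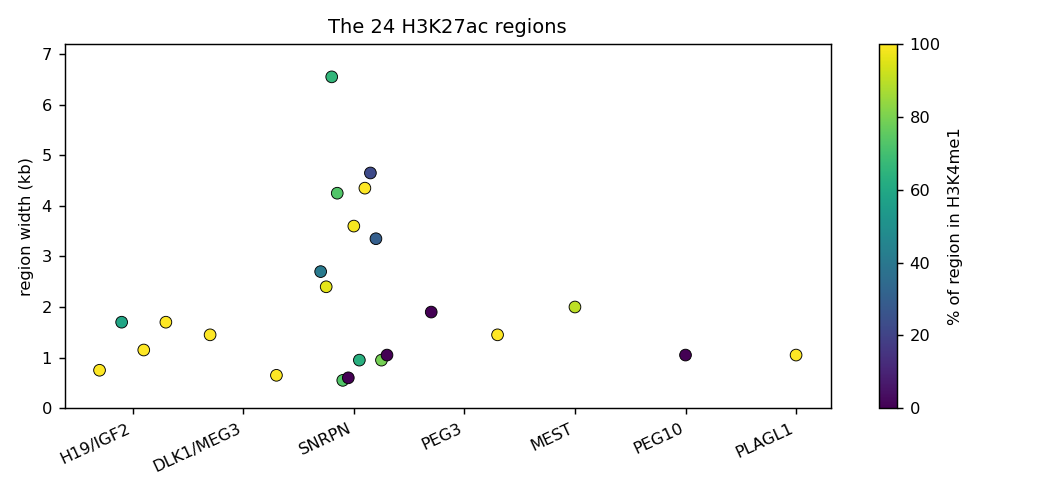
Width in kb of each of the 24 H3K27ac regions by window, in order along the window and coloured by the percentage of the region in H3K4me1. All 8 regions above 2 kb lie in the SNRPN window, and they range from 22.6% to 100% in H3K4me1.

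The H19/IGF2 and DLK1/MEG3 windows showed the opposite balance, with many H3K4me1 regions and little acetylation for that amount of H3K4me1. The H19/IGF2 window (chr11:1980001-2200000, 220 kb) held 4 H3K27ac and 37 H3K4me1 regions. H3K27ac covered 2.41%, against a median of 2.66% over windows of 220 kb, of which 52.5% held as much. H3K4me1 covered 24.6%, against a median of 5.84%, and 9.57% of windows of this length held as much. Of the 1344 windows of 220 kb with at least this H3K4me1 length, 11 (0.818%) had no more H3K27ac. Both counts include the H19/IGF2 window itself. The flanking 220 kb on either side were as rich in H3K4me1, at 28.2% before and 24% after, and held more H3K27ac than the window, 4.27% before and 6.43% after.

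All 4 acetylated regions of the H19/IGF2 window lay on H3K4me1. The region chr11:2022251-2023000 (0.75 kb, score 0.024) sat inside the H3K4me1 region chr11:2018801-2024900 (6.1 kb). That region was named as the widest of the 109 H3K4me1 members, and 1.42% of all H3K4me1 regions are as wide or wider. The region chr11:2113701-2114850 (1.15 kb, score 0.02) lay inside an H3K4me1 region of 3.4 kb. At chr11:2177401-2179100 (1.7 kb) the score was 0.002, the lowest of this window, and the region lay inside chr11:2176701-2181800, an H3K4me1 region of 5.1 kb. The remaining one, chr11:2097901-2099600 (1.7 kb, score 0.009), was 58.8% in H3K4me1. The other 33 H3K4me1 regions overlapped no H3K27ac. They included 4 of 2 kb or more, named here after their values were seen: chr11:2153951-2156400, chr11:2157851-2160850, chr11:2171501-2173700 and chr11:2185751-2188050, of 2.45, 3, 2.2 and 2.3 kb. The longest stretch without either mark was chr11:2059951-2092350 (32.4 kb).

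The DLK1/MEG3 window (chr14:101150001-101360000, 210 kb) held 2 H3K27ac and 33 H3K4me1 regions. H3K27ac covered 1%, against the median of 2.67%, and 67.8% of windows of this length held as much. H3K4me1 covered 16.8%, against 5.93%, and 19.7% of windows held as much. The length ratio of H3K27ac to H3K4me1 was 0.0597, the lowest of the 7 windows, and 1.06% of the windows of 210 kb with both marks had a ratio this low. Of the 2899 windows with at least this H3K4me1 length, 29 (1%) had no more H3K27ac. The flanks held more H3K27ac, 2.55% before and 3% after, and 20.2% and 14.3% of H3K4me1.

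Both acetylated regions of the DLK1/MEG3 window lay wholly in H3K4me1. The first, chr14:101169651-101171100 (1.45 kb, score 0.009), lay in the widest H3K4me1 region of the window, chr14:101169151-101172050 (2.9 kb). The second, chr14:101288551-101289200 (0.65 kb, score 0.032), is narrower than most, since 93.3% of H3K27ac regions are at least as wide, and lay in an H3K4me1 region of 1.8 kb. The other 31 H3K4me1 regions had no H3K27ac and were mostly narrow, with a median of 850 bp over all 33 in the window. The longest free stretch was 32.55 kb.

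**Figure D3:**
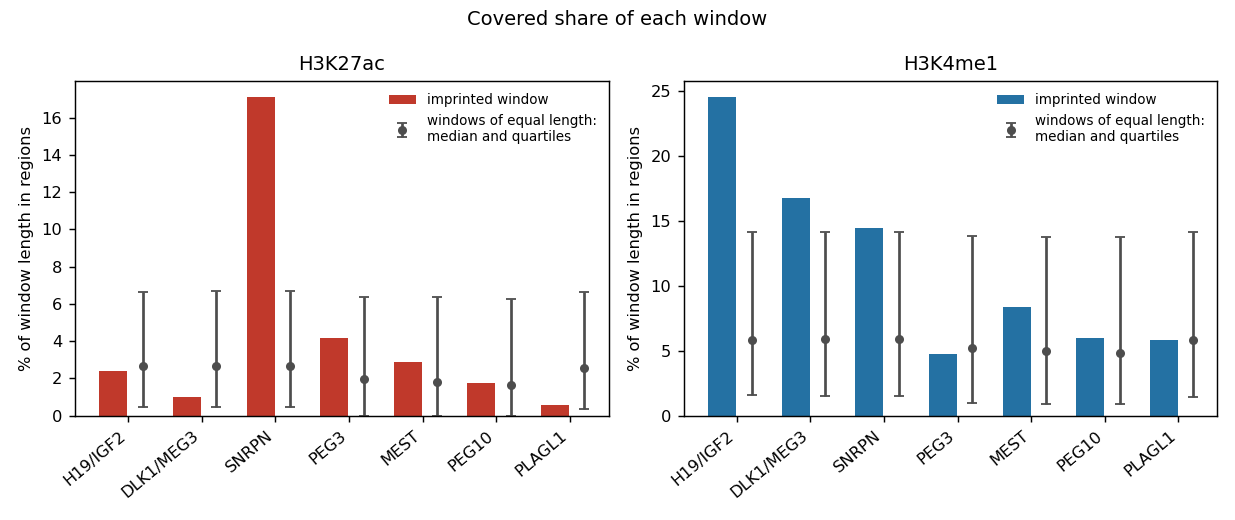
Percentage of each window's length in H3K27ac regions (left, red bars) and H3K4me1 regions (right, blue bars), with the median and quartiles over all windows of equal length (grey points and bars). SNRPN exceeds the upper quartile for both marks, at 17.1% and 14.5%, and H19/IGF2 and DLK1/MEG3 do so for H3K4me1 alone, at 24.6% and 16.8%.

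The PEG3, MEST, PEG10 and PLAGL1 windows had 1 or 2 H3K27ac regions each. In the PEG3 window (chr19:57300001-57380000, 80 kb), 2 H3K27ac regions covered 4.19%, against a median of 1.94%, and 34.7% of windows of 80 kb held as much. H3K4me1 covered 4.75% in 3 regions, against 5.19%, and 51.9% of windows held as much. Of the 5 regions, 4 lay close together. The region chr19:57349051-57350500 (1.45 kb, score 0.009) was wholly in chr19:57348351-57350600 (2.25 kb), the widest H3K4me1 region. The other acetylated region, chr19:57345451-57347350 (1.9 kb, score 0.009), carried no H3K4me1 and lay 1 kb from it. A second H3K4me1 region, chr19:57351251-57352100, lay on the far side, and the last, chr19:57375851-57376550, stood apart. The 45.45 kb before chr19:57345451 within the window and the 80 kb before the window carried no region of either mark.

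In the MEST window (chr7:130100001-130170000, 70 kb) the only H3K27ac region, chr7:130125351-130127350 (2 kb, score 0.007), lay over 90% of its length in the widest H3K4me1 region, chr7:130124851-130127150 (2.3 kb). H3K27ac covered 2.86%, against a median of 1.79%, and 42.1% of windows of 70 kb held as much. H3K4me1 covered 8.36%, against 5%, and 38.1% of windows held as much. The other 4 H3K4me1 regions were 0.75 to 1 kb wide and lay on both sides, at chr7:130115851-130116750, chr7:130117151-130117900, chr7:130132501-130133400 and chr7:130136551-130137550. After the last of them neither mark was listed in the remaining 32.45 kb of the window, nor in the 70 kb that follow it.

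The PEG10 window (chr7:94260001-94320000, 60 kb) was the only one of the 7 in which the marks did not meet. Its single H3K4me1 region, chr7:94284551-94288150, is 3.6 kb wide, a width that 5.65% of H3K4me1 regions reach, and has a score of 0.003. Its single H3K27ac region, chr7:94311801-94312850 (1.05 kb, score 0.014), lay 23.65 kb further along. H3K27ac covered 1.75%, against a median of 1.67%, and 49.6% of windows of 60 kb held as much. H3K4me1 covered 6%, against 4.83%, and 45.7% of windows held as much. The 24.55 kb before the H3K4me1 region were free of both marks. With scores at or below the list median the H3K27ac region drops out and the window holds none.

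The PLAGL1 window (chr6:144230001-144410000, 180 kb) was the least acetylated, with 1 H3K27ac region, chr6:144284501-144285550 (1.05 kb, score 0.019), that lay wholly in an H3K4me1 region of 1.85 kb. H3K27ac covered 0.583%, against a median of 2.56%, and 72.3% of windows of 180 kb held as much. H3K4me1 covered 5.86% in 10 regions, against 5.81%, and 49.8% of windows held as much. The widest H3K4me1 region, chr6:144384251-144386650 (2.4 kb, score 0.003), carried no H3K27ac. The flanks of 180 kb were richer in H3K27ac than the window, with 7.72% before and 6.92% after, and in H3K4me1, with 11.5% and 9.69%. The first 41.1 kb of the window were free of both marks. Here too the H3K27ac region is lost with scores at or below the list median.

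Read over all windows, the share of acetylated regions with H3K4me1 was close to that elsewhere. The share of H3K4me1 regions with acetylation was lower than elsewhere when the windows were pooled, without matching for width. It was also lower within each width class given below, where each interval includes the share outside. Of the 24 H3K27ac regions, 20 overlapped H3K4me1 (83.3%, exact Clopper-Pearson 95% interval 62.6% to 95.3%), against 83.1% of the 71053 outside the windows. Of the 109 H3K4me1 regions, 23 overlapped H3K27ac (21.1%, interval 13.9% to 30.0%), against 34.5% of the 200703 outside (34.3% to 34.7%). These intervals cover counting error only and are too narrow, because neighbouring regions are not independent. The windows parted here: 14 of 20 H3K4me1 regions overlapped H3K27ac in SNRPN (70%, 45.7% to 88.1%), 6 of 70 in H19/IGF2 and DLK1/MEG3 (8.57%, 3.21% to 17.7%) and 3 of 19 in the remaining windows (15.8%, 3.38% to 39.6%, which includes the share outside). These groups were chosen with earlier results or the values known, so an interval that leaves out the share outside is not a test.

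Width bears on these shares, since wide regions meet the other mark more often. H3K4me1 regions of the windows had a median width of 1000 bp, against 1050 bp outside, and H3K27ac regions 1575 bp, against 1600 bp outside. Among H3K4me1 regions under 1 kb, 0 of 37 in H19/IGF2 and DLK1/MEG3 overlapped H3K27ac, against 12.6% of such regions outside. A count of 0 of 37 allows a share of up to 8.11% by the limit of 3 counts and up to 9.49% by the exact interval used for the other shares. In SNRPN 2 of 7 did (28.6%, 3.67% to 71.0%), an interval that includes the value outside. At 1 to under 2 kb, the counts were 2 of 24 in H19/IGF2 and DLK1/MEG3 (8.33%, 1.03% to 27%) and 8 of 9 in SNRPN (88.9%, 51.8% to 99.7%), against 39.6% outside. At 2 kb or more, they were 4 of 9 (44.4%, 13.7% to 78.8%) and 4 of 4 (interval 39.8% to 100%), against 77.2% outside. In the widest class, both of these intervals include the value outside. The groups are again those chosen with earlier results or the values known. Pooled over all 7 windows, the shares were 3.70% under 1 kb (0.452% to 12.7%), 28.9% at 1 to under 2 kb (15.4% to 45.9%) and 58.8% at 2 kb or more (32.9% to 81.6%). Each was below the share outside, and each interval includes it, so within a single width class the difference is not beyond counting error. The classes hold 54, 38 and 17 regions, so their intervals are wider than that of the pooled set. Whether width accounts for the pooled difference was not tested.

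**Figure D4:**
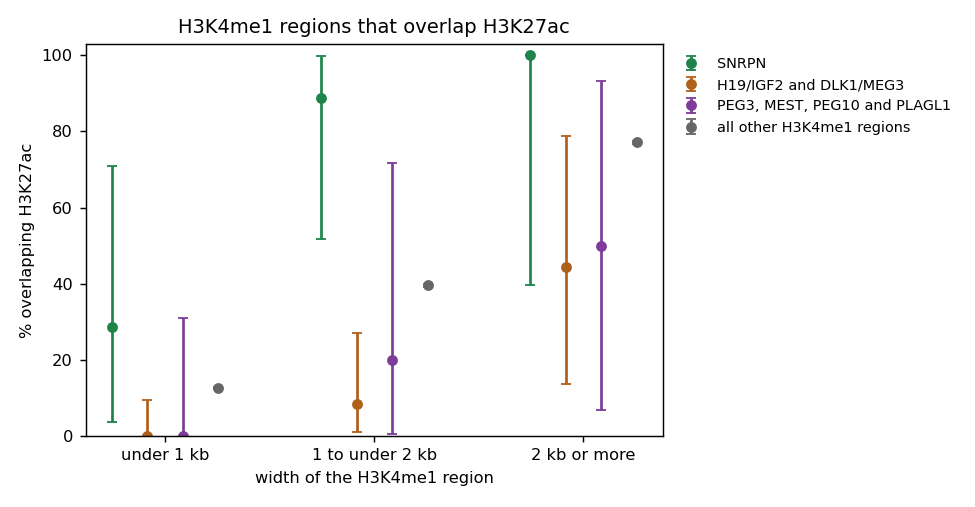
Percentage of H3K4me1 regions that overlap H3K27ac by at least 1 bp, by width class, for groups of imprinted windows and for all other H3K4me1 regions (grey), with exact 95% intervals over regions. SNRPN lies above the grey point in each class and the H19/IGF2 and DLK1/MEG3 windows below it, but the intervals of both reach the grey value at 2 kb or more, and that of SNRPN also under 1 kb. The groups were chosen with earlier results or the values known.

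The scores of members were close to those elsewhere. At or below the list median of 0.009 were 14 of the 24 H3K27ac regions (58.3%, 36.6% to 77.9%), against 58.9% outside. At or below the H3K4me1 median of 0.008 were 50 of 109 (45.9%, 36.3% to 55.7%), against 50.6% outside. By window, such H3K27ac regions numbered 8 of 13 in SNRPN, 2 of 4 in H19/IGF2, 1 of 2 in DLK1/MEG3, 2 of 2 in PEG3, 1 of 1 in MEST and none of the single regions of PEG10 and PLAGL1. H3K4me1 regions at or below the median numbered 13 of 20 in SNRPN, 15 of 37 in H19/IGF2, 14 of 33 in DLK1/MEG3, 1 of 3 in PEG3, 2 of 5 in MEST, 1 of 1 in PEG10 and 4 of 10 in PLAGL1.

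**Figure D5:**
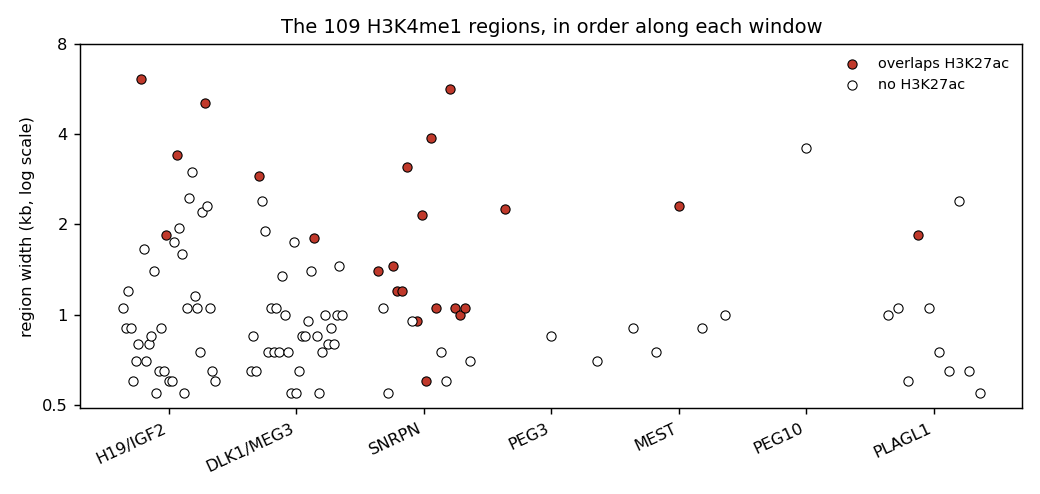
Width in kb (log scale) of each of the 109 H3K4me1 regions by window, filled where the region overlaps H3K27ac and open where it does not. Filled points number 14 of 20 in SNRPN, 4 of 37 in H19/IGF2 and 2 of 33 in DLK1/MEG3, and the region of 3.6 kb in PEG10 is open.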

How the data were processed

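LNCaP chromatin was crosslinked, sonicated and immunoprecipitated, and single-end reads were sequenced on an Illumina HiSeq, per the labels' protocols. The submitters' processing notes name Bowtie 0.12.8 and hg19. How regions were called (caller, threshold, duplicates, input) is not given in the sources used here, although such choices set how many regions are listed and how wide. The deposited lists hold chromosome, start, end and an unnamed score per region, used only to rank or filter within a list. Starts were read as 0-based and are printed from 1. The mitochondrial region of each list was left out.

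Each chromosome's length was taken as the furthest region end in either list (3093 Mb together). Windows of equal length were laid end to end from each chromosome's first position, and were not matched for gene content. The H19/IGF2 and PEG10 windows are themselves among the windows they are set against, and the others overlap some of theirs in part. Unless the text says that they were chosen after their values were seen, regions were named by a fixed rule: the widest of each mark per window, every region where a window holds at most 5 of a mark, those of the lowest score, and the longest free stretch. The members, windows, lists, width classes and groups of windows, and the counts of windows with as much H3K4me1 and no more H3K27ac, were chosen with earlier results or the values of these data known. Copy number, which is abnormal in LNCaP, was not corrected. The interval arithmetic was tested on 3 pairs of simulated lists with 0 mismatches. Scripts ran in Python 3.11.15, with scipy 1.17.1 for intervals, matplotlib 3.10.9 for figures, and pandas 2.3.3 over numpy 2.4.6.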

Additional observations from a re-analysis of the deposited data

How the results depend on the processing

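Alternatives were a score limit, another overlap, merging, other window bounds and other backgrounds. A share counted as moved when it left its interval, and other values when they changed by over 1.5 times. Of 44 such values over all windows, 39 did not move. With scores at or below the list median, 14 H3K27ac regions of a median width of 2550 bp and 50 H3K4me1 regions of a median width of 1525 bp remained, and 30% of these H3K4me1 regions overlapped H3K27ac. The ratio of H3K27ac coverage to the rest stayed near 1, from 0.908 with windows extended by 50 kb to 1.1 with the score limit, so its direction is not fixed, while that of H3K4me1 stayed above 1 (1.25 to 1.41).

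Leaving out 1 window at a time gave 11 to 23 H3K27ac and 72 to 108 H3K4me1 regions, shares overlapping the other mark of 80% to 87% for H3K27ac and 10.1% to 27.6% for H3K4me1, covered lengths of 1.81% to 5.94% and 11% to 15.6%, and ratios to the rest of 0.39 to 1.28 and 1.17 to 1.65. The lowest H3K27ac number, length and ratio and the lowest H3K4me1 share were those without SNRPN. The lowest H3K4me1 number, length and ratio were those without H19/IGF2. Of 147 values of single windows, 34 moved, 20 with the score limit and 13 with the extension. No share of equal-length windows moved by this limit when only those holding a region of either mark were used, an alternative added after seeing the data. Against the medians of those windows, however, MEST (2.86% against 3.21%) and PEG10 (1.75% against 3.25%) fell below for H3K27ac. PEG10 (6% against 8%) and PLAGL1 (5.86% against 7.33%) fell below for H3K4me1. All other values stayed on the same side of the median. No paired analysis was possible because there is 1 library per mark.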

Other observations

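The ratio of H3K27ac to H3K4me1 length ordered the 7 windows from SNRPN (1.18) and PEG3 (0.882) through MEST (0.342), PEG10 (0.292), PLAGL1 (0.0995) and H19/IGF2 (0.0981) to DLK1/MEG3 (0.0597). In PEG3, MEST, PEG10 and PLAGL1 this rests on 1 or 2 H3K27ac regions each. Of the 8545 windows of 180 kb with at least the H3K4me1 length of PLAGL1, 256 (3%) had no more H3K27ac, so the 3 loci lowest in acetylation for their H3K4me1 were PLAGL1, H19/IGF2 and DLK1/MEG3. In each of these 3 the flanks on either side held more H3K27ac than the window, with 1.05 kb in PLAGL1, against 13.9 and 12.45 kb in its flanks, 5.3 kb in H19/IGF2, against 9.4 and 14.15 kb, and 2.1 kb in DLK1/MEG3, against 5.35 and 6.3 kb. The SNRPN window held 35.95 kb, against 7.7 and 3.1 kb in its flanks.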
